A study of Mus musculus with 6 samples.

Results

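Formins are actin nucleators, a family of proteins that start and lengthen unbranched actin filaments. A pair of FH2 domains nucleates the filament and stays on its growing end, while the neighbouring FH1 domain brings in actin bound to profilin. Many formins are held inactive by a contact between their own ends, which small GTPases open, and in enterocytes actin filaments form the core of the microvilli, the terminal web and the belt at cell junctions. The 10 genes described here are Fmnl1, Fmnl2, Fmnl3, Diaph1, Diaph2, Diaph3, Daam1, Daam2, Fhod1 and Fhod3. They were taken as every probe set whose annotated symbol is one of these names, which gave 1 probe set for each of 9 genes out of 19933 genes measured, and Fmnl3 was not analysed here. The genes were chosen by the difference between the array groups, known from earlier results of these data. The values of the 9 genes are therefore a description and carry no p-values. Their calls against the threshold used for all genes, also with an array left out, are part of that description and no test.

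Affymetrix Gene 1.0 ST arrays read the RNA of freshly isolated epithelial cells of mouse jejunum, a part of the small intestine, 1 array per mouse. The 3 mice labelled transgenic carried a tetracycline-responsive MSI2 transgene with the R26-M2rtTA transactivator (genotype TRE-MSI2::R26-M2rtTA), and the 3 mice labelled control carried R26-M2rtTA alone. All 6 mice, controls included, drank doxycycline for 24 hours, and their strain and age are not given in the sources used here. MSI2 is an RNA-binding protein of the Musashi family, and because the Rosa26 locus is broadly active, induction need not be limited to the epithelium. The comparison asks which formin transcripts differ between mice with and without the labelled transgene after 1 day of doxycycline.

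The array medians lay between 6.42 and 6.46 on the log2 scale. Msi2, the transcript that the labels name, did not separate the arrays and read 11.23, 10.58 and 11.44 in the arrays labelled transgenic, against 11.30, 9.53 and 9.32 in those labelled control. Its log2 difference of 1.03 did not pass in limma (adjusted p = 0.257), control replicate 1 being at the transgenic level against its label. With any other array left out it did not pass either (limma adjusted p from 0.226 to 0.553). Without control replicate 1 it was 1.66 (limma adjusted p = 0.00958). That array was singled out by its Msi2 value, so nothing is read from this pass. That array also correlated less with the other controls (r = 0.981 and 0.982 over all probe sets) than they did with each other (0.996), and each formin is given with and without it. Its Msi1 value, 7.20, stood with the other controls at 7.97 and 7.62, while the arrays labelled transgenic read 13.44, 12.82 and 13.53, a difference of 5.66 (limma adjusted p = 0.000818), so the transcript that separated the labels was Msi1, the other Musashi gene, which the labels do not name. Of the epithelial markers Epcam, the cell adhesion molecule of epithelia, averaged 12.74 ± 0.14 in arrays labelled transgenic and 12.77 ± 0.05 in arrays labelled control (log2, SD, n = 3 each). Of all 9 such markers 2 rose, Krt18 by 1.47 and Cdh1 by 0.32, and 2 fell, Vil1 with -0.80 and Cdx1 with -0.53 (limma adjusted p = 0.00221, 0.0432, 0.0453 and 0.0374). Over all genes 8.97% rose and 9.65% fell in the same fit. Krt18 passed under every alternative. The other 3 calls were lost with sex as a block and without transgenic replicate 1, transgenic replicate 3, control replicate 2 or control replicate 3, reaching 0.148 at most, Cdh1 and Cdx1 without transgenic replicate 2 as well, and Cdh1 with the replicate block (adjusted p = 0.0718). Nothing in the labels beyond the words biological replicate describes how the samples were split, and having only 3 arrays per label limits the precision.

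The sequences before the start of the 3 formins that passed the threshold are shown here because they are the regulatory DNA nearest to the transcripts whose levels differed. They come from RefSeq on GRCm38.p6, plus strand, 5′ to 3′, cut where the first annotated transcript of the gene begins, with GC boxes (GGGCGG, either strand) in capitals.
Fmnl2, chr2:52857618-52857716: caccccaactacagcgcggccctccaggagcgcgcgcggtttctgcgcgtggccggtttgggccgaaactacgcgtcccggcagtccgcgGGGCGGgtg
Daam1, chr12:71830818-71830949: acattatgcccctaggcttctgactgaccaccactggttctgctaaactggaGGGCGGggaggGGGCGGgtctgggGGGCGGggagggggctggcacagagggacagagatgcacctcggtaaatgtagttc
Fmnl1, chr11:103170888-103171003: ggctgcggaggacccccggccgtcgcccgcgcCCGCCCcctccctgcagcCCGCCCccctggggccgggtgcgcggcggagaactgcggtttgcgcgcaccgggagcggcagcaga
The printed Fmnl2 stretch of 99 bases is 73.7% G or C and holds 16 CpG dinucleotides, the Daam1 stretch of 132 bases 62.1% with 4, and the Fmnl1 stretch of 116 bases 81.9% with 17. The promoter table of RefSeq sets its own starts for these genes, downstream of the first annotated transcript start at which the printed stretches end. In the 250 bases before the table's starts, Fmnl2 and Fmnl1 have 77.6% and 79.2% G or C, and the 2 starts of Daam1 58.0% and 52.8%, beside a median of 52.4% over 32851 mouse promoters. At least 1 GC box stands in 32.7% of all such windows. In the 250-base windows of Fmnl2, Daam1 and Fmnl1 no AP-1 motif (TGACTCA), TEAD motif (GGAATG), SRF CArG box, TATAAA or CACGTG was found on either strand. Those letters occur in 4.46%, 12.6%, 1.47%, 12.4% and 6.02% of all promoters, in that order.

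In the arrays labelled transgenic Fmnl2 and Daam1 rose and Fmnl1 fell, 3 of the 9 measured formins, at a threshold of 0.05 on limma's adjusted p. Over all genes 18.6% passed in either direction, 8.97% rising and 9.65% falling. Diaph1, Fhod1 and the other 4 did not pass. Diaph1 joined the calls, making 4 of 9, when the replicate number was a block (25.8% of all genes) and when control replicate 1 was left out (27.8% of all genes). In 5 of the 9 genes the 3 values of one label did not overlap those of the other, higher for Fmnl2 and Daam1 and lower for Fmnl1, Diaph1 and Fhod1, where 37.0% of all genes had such a gap. The median log2 difference of the 9 was 0.06, against 0.02 over all genes, and their median size irrespective of sign was 0.31, against 0.18. The rule used this contrast, so nothing is read from these counts.

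Fmnl2 encodes a formin that acts downstream of Cdc42 and drives the actin network at the leading edge of moving cells. Its probe set read 11.36, 10.77 and 11.04 in the arrays labelled transgenic, against 6.22, 5.86 and 6.23 in the arrays labelled control. Every transgenic value lay at least 4.55 log2 units above every control value, a gap many times the spread within either label. The means were 11.06 ± 0.29 and 6.10 ± 0.21 (SD, n = 3 each), a log2 difference of 4.96 (SE 0.18) or 31.0-fold. Among the 19933 genes it ranked 8 from the top by size of difference. Without control replicate 1 the difference was 5.01, and with any 1 array left out it lay between 4.80 and 5.10 and stayed past the threshold. The difference was 5.14, 4.91 and 4.81 between arrays of the same replicate number, and 5.21 among the males and 4.82 among the females, with sex read from Xist and Y-linked genes. Control replicate 1, which shared its Msi2 level with the arrays labelled transgenic, thus had a control level of Fmnl2. The control values lay above 4.07 to 5.06, the range in which Xist and Y-linked probe sets read in animals lacking those transcripts, although probe sets differ in background and array background compresses large folds.

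The 4 patterns most like that of Fmnl2 were found by centring each gene on its own mean and averaging the absolute difference over the 6 arrays. The closest was Slc7a11, the cystine-glutamate antiporter, whose values differed from those of Fmnl2 by 0.174 log2 units on average. Its level was 10.85, 10.03 and 10.40 in the arrays labelled transgenic, against 6.07, 5.28 and 5.33 in those labelled control. Next came the small proline-rich protein gene Sprr2f at 0.238, the phospholipid scramblase family gene Plscr2 at 0.252 and Sprr2h at 0.274, the Sprr2 genes having close relatives that could share probes. In all 4 genes replicate 1 was the highest of the arrays labelled transgenic, as in Fmnl2, which choosing them by likeness over these same arrays favours.

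The leukocyte formin Fmnl1 went the other way. Its values were 5.89, 6.06 and 6.10 in the arrays labelled transgenic, against 6.42, 6.41 and 6.35 in the arrays labelled control. All 3 transgenic values lay below all control values, by a gap of 0.26. The log2 difference was -0.38 (SE 0.08), and -0.36 without control replicate 1. It kept its call without control replicate 1 or transgenic replicate 2 and lost it without control replicate 2, control replicate 3, transgenic replicate 1 or transgenic replicate 3, where the difference ranged from -0.42 to -0.31, and with sex as a block (-0.36). Among males the difference was -0.43 and among females -0.29.

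Most leukocyte markers also averaged lower in the arrays labelled transgenic. Of 13 measured leukocyte markers 8 fell and none rose in limma, where 9.65% of all genes fell and 8.97% rose, among them Ptprc, the pan-leukocyte phosphatase CD45, with a log2 difference of -1.24 (SE 0.27, adjusted p = 0.0287). The T cell receptor subunit Cd3e had -1.35 (SE 0.24, adjusted p = 0.017) and Itgae, the integrin of intraepithelial lymphocytes, -1.85 (SE 0.20, adjusted p = 0.00502). Of the 8, Itgae alone passed with any 1 array left out. Ptprc and Cd3e lost their calls without transgenic replicate 3, control replicate 2 or control replicate 3. Their limma adjusted p reached 0.102 for Ptprc and 0.0718 for Cd3e, both without transgenic replicate 3. Leaving out transgenic replicate 1 ended the Ptprc call as well. A block for sex also ended the Ptprc call (limma adjusted p = 0.0719). The summed level of the 13 markers ranged from 10.41 to 11.31 in the arrays labelled transgenic, against 12.26 to 12.98 in those labelled control. Markers of B cells (Ms4a1) and myeloid cells (Itgam and Csf1r) had differences of -0.10, 0.05 and 0.20 and did not pass (limma adjusted p = 0.516, 0.871 and 0.38). In bulk samples fewer cells of a type and less RNA per cell cannot be told apart, and the part of leukocytes in the Fmnl1 value was not tested.

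**Figure D1:**
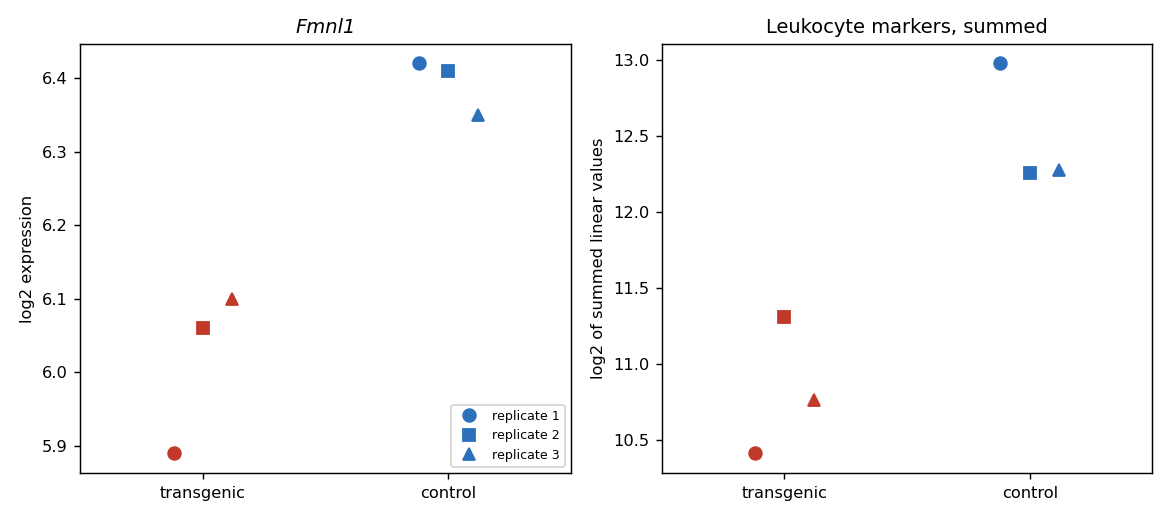
Log2 level of Fmnl1 (left, y axis log2 expression) and log2 of the summed linear values of 13 leukocyte markers (right) in each of the 3 arrays labelled transgenic and the 3 labelled control, with marker shape giving the replicate number. In both panels all transgenic points lie below all control points, at 5.89 to 6.10 against 6.35 to 6.42 for Fmnl1 and at 10.41 to 11.31 against 12.26 to 12.98 for the markers.

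The Diaph genes encode the mammalian diaphanous formins. Diaph1, which makes long straight filaments, read 8.69, 8.97 and 8.72 in the arrays labelled transgenic, against 9.07, 9.29 and 9.53 in the arrays labelled control. The groups were separated by a narrow gap of 0.10, with transgenic replicate 2 next to control replicate 1. The log2 difference of -0.51 (SE 0.14) did not pass the threshold over all 6 arrays. It passed with the replicate block, with array weights (-0.62), with a filter that keeps means of at least 6, without control replicate 1 (-0.62) and without transgenic replicate 2 (-0.59). Diaph2 is a diaphanous formin whose gene lies on the X chromosome. Its values were 8.23, 7.92 and 7.82 in the arrays labelled transgenic, against 8.07, 7.43 and 8.03 in those labelled control. The groups overlapped and the difference was 0.15 (SE 0.20), or 0.26 without control replicate 1. It was 0.64 among males and -0.23 among females, a contrast resting on 1 array of 1 label in each sex.

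Diaph3, a formin of filopodia and of the cytokinetic ring, read 7.36, 6.92 and 6.96 in the arrays labelled transgenic, against 7.37, 6.79 and 6.88 in the arrays labelled control. The arrays numbered 1 were the highest under both labels and differed by 0.02, so its spread followed the replicate number rather than the label. The difference between labels was 0.06 (SE 0.19), and 0.24 without control replicate 1, which exceeded the other controls by 0.54. None of the alternatives brought Diaph2 or Diaph3 past the threshold.

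Daam1, which links the Wnt pathway protein Dishevelled to the actin skeleton in planar cell polarity, was the other member to rise. Its values were 9.20, 9.50 and 9.31 in the arrays labelled transgenic, against 8.37, 8.68 and 8.77 in the arrays labelled control. The lowest transgenic value exceeded the highest control value by 0.43. The log2 difference of 0.73 (SE 0.14) corresponds to 1.66-fold, and it was 0.61 without control replicate 1. Between arrays of the same number it was 0.83, 0.82 and 0.54, among males 0.67 and among females 0.74. It fell short of the threshold when control replicate 2 (0.77), control replicate 3 (0.81) or transgenic replicate 3 (0.75) was left out, and with sex as a block (0.71). Its paralog Daam2 read 5.05, 5.24 and 5.30 in the arrays labelled transgenic, against 5.22, 5.37 and 5.36 in those labelled control. The groups overlapped and the difference was -0.12 (SE 0.10), or -0.17 without control replicate 1.

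Of the Fhod genes, Fhod1, a formin of stress fibres, read 7.82, 7.64 and 7.71 in the arrays labelled transgenic, against 8.05, 7.90 and 8.15 in the arrays labelled control. All transgenic values were lower, by a gap of 0.08, and the difference of -0.31 (SE 0.10; -0.30 without control replicate 1) passed the threshold under none of the settings tried. Fhod3, known from the sarcomeres of heart muscle, read 5.82, 6.03 and 5.98 in the arrays labelled transgenic, against 5.93, 5.97 and 5.72 in those labelled control. These ranges overlapped, with a difference of 0.07 (SE 0.10), or 0.10 without control replicate 1. Over the 6 arrays none of 10 markers of fibroblasts and muscle passed in limma, and their summed level ranged from 9.57 to 9.72 in the arrays labelled transgenic and from 9.42 to 9.87 in those labelled control. Among them the proteoglycan gene Dcn read 5.95, 6.56 and 6.21 in the arrays labelled transgenic, against 7.72, 5.37 and 5.55 in those labelled control. Its difference over the 6 arrays was 0.02 (limma adjusted p = 0.986). It rose by 0.78 when control replicate 1 was left out (limma adjusted p = 0.0322). That array held its outlying control value, so nothing is read from this rise.

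**Figure D2:**
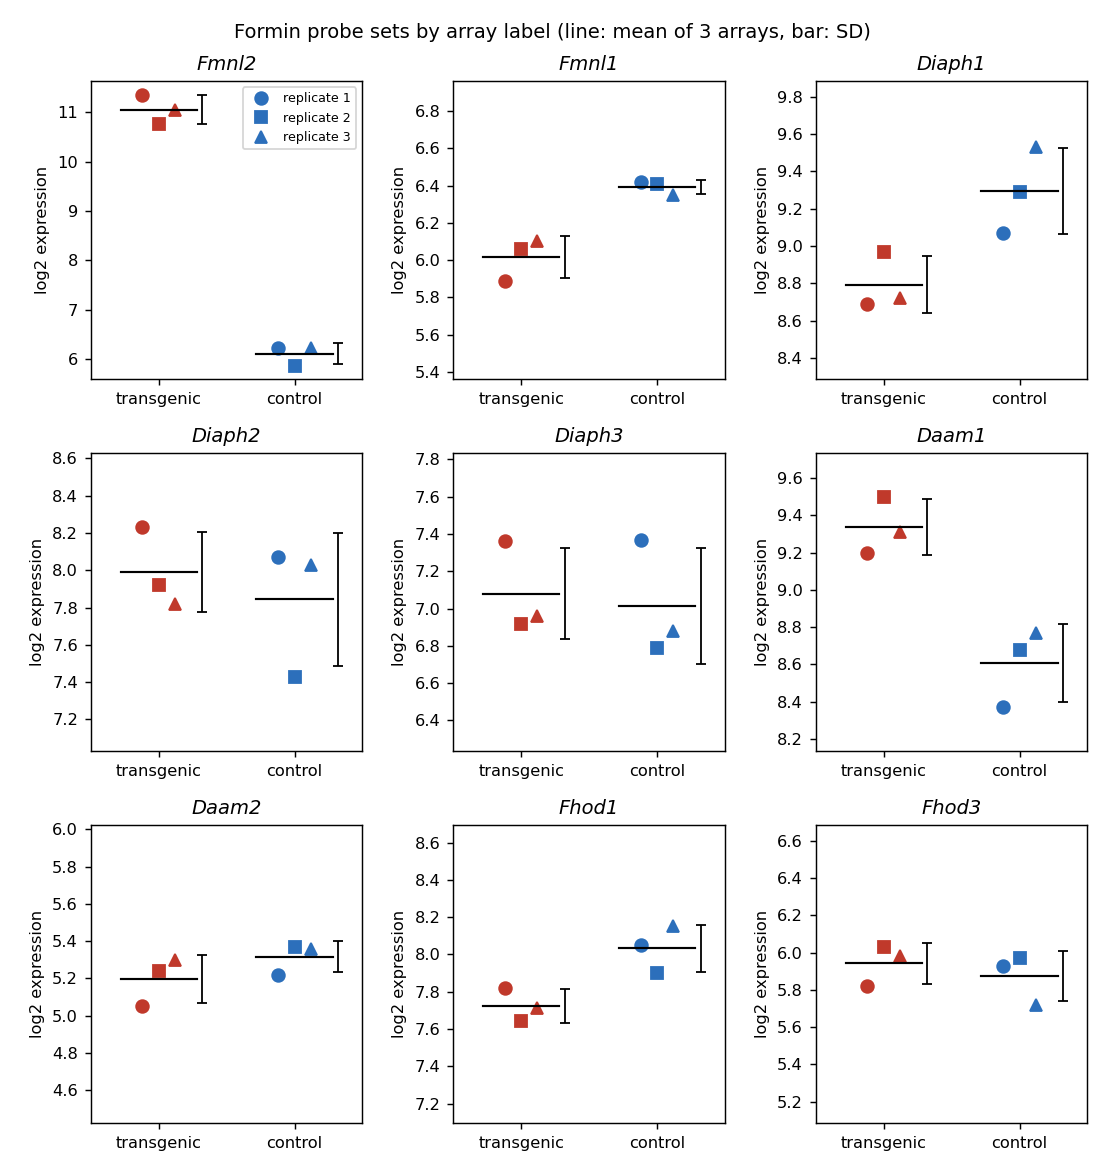
Log2 expression of the 9 formin probe sets in the arrays labelled transgenic (red, left in each panel) and control (blue, right), with marker shape for the replicate number, a line at the mean of 3 arrays and a bar for the SD. Each panel has its own y axis, which does not start at 0. Fmnl2 (10.77 to 11.36 against 5.86 to 6.23) and Daam1 (9.20 to 9.50 against 8.37 to 8.77) lie higher in the arrays labelled transgenic, Fmnl1, Diaph1 and Fhod1 lie lower, and the other 4 overlap.

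The 5 formins of the family that are not among the 10 were examined in the same fit. Fhdc1, a formin that associates with microtubules, rose to 8.27, 8.14 and 8.38 in the arrays labelled transgenic, against 6.41, 6.71 and 6.76 in the arrays labelled control. Its log2 difference of 1.64 (SE 0.12, 3.11-fold) passed in limma (adjusted p = 0.00195) and did so with any 1 array left out. Inf2, which both builds and takes apart filaments and sits in part on the endoplasmic reticulum, read 8.85, 8.28 and 8.00 in the arrays labelled transgenic, against 6.83, 6.76 and 7.01 in those labelled control. It rose by 1.51 (SE 0.22, 2.85-fold, limma adjusted p = 0.00986), with the call lost only without control replicate 2, at an adjusted p of 0.05 after rounding. Neither gene's groups overlapped, and both passed without control replicate 1 (adjusted p = 0.00163 for Fhdc1 and 0.0117 for Inf2).

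Fmn1, a formin of epithelial cell junctions, read 8.61, 9.07 and 8.91 in the arrays labelled transgenic, against 9.18, 9.73 and 9.72 in the arrays labelled control. The difference of -0.68 (SE 0.19) did not pass in limma (adjusted p = 0.0574), whereas it fell with the replicate block (adjusted p = 0.00961) and when control replicate 1 was left out (-0.86, adjusted p = 0.0116). Fmn2, known from the mouse oocyte spindle, and the synaptic formin Grid2ip had overlapping groups, with differences of 0.04 and -0.09 (adjusted p = 0.738 and 0.512). Across the 14 measured formins, then, Fmnl2, Fhdc1, Inf2 and Daam1 rose and Fmnl1 fell. Of the 5 other formins 2 passed, 40% against 18.6% of all genes, and nothing is read from that share. Only Fmnl2 and Fhdc1 kept their calls with any 1 array left out. Daam1 and Fmnl1 also lost theirs with sex as a block.

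**Figure D3:**
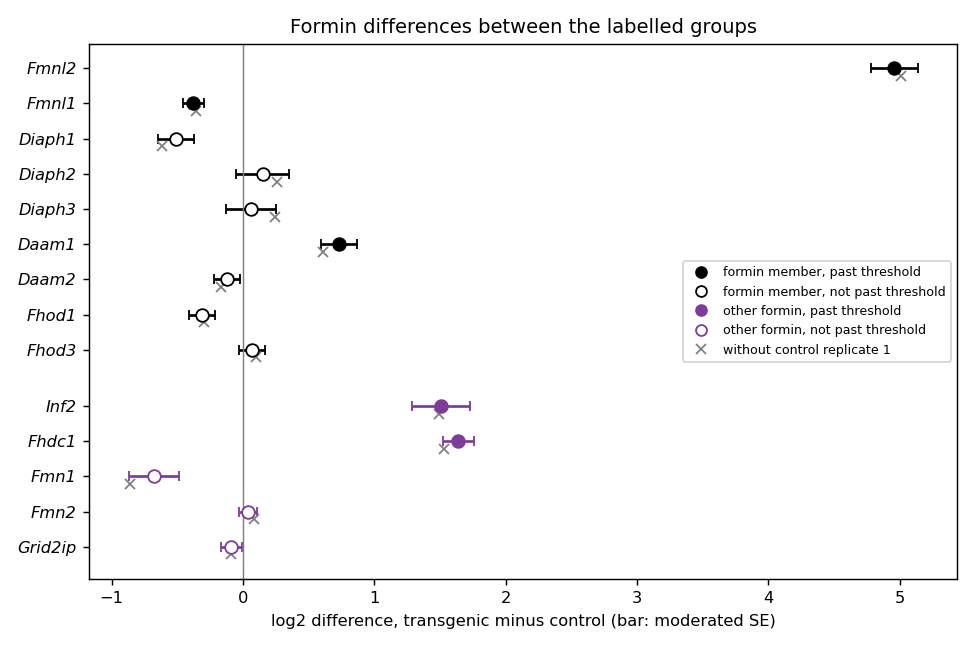
Log2 difference (transgenic minus control, x axis) of the 9 formins described here (black) and of 5 other formins (purple), with bars for the moderated SE, filled circles past the threshold over all genes and crosses for the value without control replicate 1. Fmnl2 at 4.96 stands far from the rest, which lie between -0.68 and 1.64.

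Among 19 measured partners of formins 2 rose and 3 fell, 26.3% against 18.6% of all genes, with a median difference of -0.01. These partners were listed with earlier results known, so nothing is read from that share. Baiap2, an adaptor that joins Cdc42 and Rac to actin nucleators, rose by 1.41 (SE 0.29, limma adjusted p = 0.0239), and Fnbp1l, a membrane-bending formin-binding protein, by 0.51 (SE 0.10, adjusted p = 0.0224). Its relative Fnbp1 had a difference of -0.53 (SE 0.09, adjusted p = 0.0152), the Dishevelled gene Dvl1, whose product binds Daam1, -0.80 (SE 0.13, adjusted p = 0.0126) and the nucleator Spire2 -0.86 (SE 0.22, adjusted p = 0.0426). The profilin gene Pfn1 read 12.13, 12.23 and 12.12 in the arrays labelled transgenic, against 12.19, 12.44 and 12.50 in those labelled control. Its difference of -0.21 had a limma adjusted p of 0.214, and of 0.0428 with control replicate 1 left out (-0.31). Each of the 5 calls was lost without at least 1 array, at adjusted p values of up to 0.0945 for Baiap2 and 0.0585 for Dvl1 (both without control replicate 3), 0.0888 for Fnbp1l without transgenic replicate 3, and 0.0617 for Fnbp1 and 0.14 for Spire2 (both without control replicate 2). Fnbp1l and Spire2 also lost theirs with sex as a block (0.0546 and 0.0741), and Spire2 with quantile normalization (0.0511). Without control replicate 1, 3 partners rose and 6 fell, where 27.8% of all genes passed.

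The Arp2/3 complex is the other main nucleator and makes branched networks. Of its 7 measured subunits Arpc1b alone rose, by 0.27 (SE 0.07, limma adjusted p = 0.042), and its call was lost with any 1 array left out. Under the replicate block Arpc1b did not pass (adjusted p = 0.0742) and Arpc1a fell (-0.45, adjusted p = 0.024). Of 19 activators of the complex 2 rose and 1 fell. The activator Wasl, encoding N-WASP, rose by 0.66 (SE 0.15, adjusted p = 0.0345) and the WAVE complex subunit Abi2 by 0.52 (SE 0.12, adjusted p = 0.0345), while Cyfip2, another subunit of that complex, fell, with -0.59 (SE 0.14, adjusted p = 0.0328). All 3 calls were lost without transgenic replicate 1, transgenic replicate 3 or control replicate 2, at adjusted p values of up to 0.123 for Wasl and Abi2 and 0.118 for Cyfip2, and with sex as a block at 0.0826, 0.0833 and 0.0672 in the same order. The shares passing, 1 of 7 and 3 of 19, lay near or below the 18.6% of all genes.

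Regulators of filament turnover, which cap, sever or store actin, passed in 9 of 27 genes, 6 rising and 3 falling, which is 33.3% against 18.6% of all genes. That list too was chosen with earlier results known, so nothing is read from its share. Capg, a capping protein of filament ends, read 8.00, 8.00 and 7.96 in the arrays labelled transgenic, against 6.63, 6.74 and 6.71 in the arrays labelled control. It rose by 1.29 (SE 0.07, limma adjusted p = 0.00107) and passed with any 1 array left out. The slingshot phosphatase Ssh1, which activates cofilin, rose by 1.13 (SE 0.17, adjusted p = 0.011) and the cofilin gene Cfl2 by 0.65 (SE 0.11, adjusted p = 0.0135). Falling genes were Cap2, an actin monomer recycling protein, with -0.78 (SE 0.08, adjusted p = 0.00481), the coronins Coro1b with -1.68 (SE 0.32, adjusted p = 0.0202) and Coro1a with -0.39 (SE 0.09, adjusted p = 0.0383). Coro1a is a blood cell coronin and stands in the leukocyte marker list described above. Cap2 kept its call with any 1 array left out, and Ssh1, Cfl2, Coro1b and Coro1a lost theirs at adjusted p values of up to 0.0534 without control replicate 2 and 0.0632, 0.0837 and 0.125 without control replicate 3, in that order. Coro1a also lost its call with sex as a block (0.0867). Without control replicate 1, 10 genes of the list rose and 4 fell, where 27.8% of all genes passed.

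Serum response factor (SRF) reads the pool of free actin through its MRTF cofactors, which are released when formins draw free actin into filaments. Of 19 measured genes of that axis 4 rose and 5 fell, 47.4% against 18.6% of all genes, with a median difference of 0.09. The list was chosen with earlier results known, so nothing particular to it is read from that share. Vcl, the vinculin of adhesion sites, rose by 0.58 (SE 0.08, limma adjusted p = 0.00746), the actin crosslinker Flna by 0.84 (SE 0.14, adjusted p = 0.0157) and the tropomyosin Tpm4 by 0.55 (SE 0.12, adjusted p = 0.0302). Among the falling genes were the adhesion adaptor Fblim1 with -0.68 (SE 0.09, adjusted p = 0.00868), the cofactor Mrtfa with -0.50 (SE 0.10, adjusted p = 0.0217) and the calponin Cnn2 with -0.85 (SE 0.17, adjusted p = 0.0219). Srf and the actin gene Actb both had differences of 0.00 (SE 0.12 and 0.07). Vcl and Fblim1 kept their calls with any 1 array left out, while Flna lost its at up to 0.0663 without control replicate 2, Tpm4 at 0.11 without transgenic replicate 3, and Mrtfa and Cnn2 at 0.0882 and 0.0893 without control replicate 3. Tpm4 and Mrtfa also lost their calls under a block for sex (0.0612 and 0.0573).

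**Figure D4:**
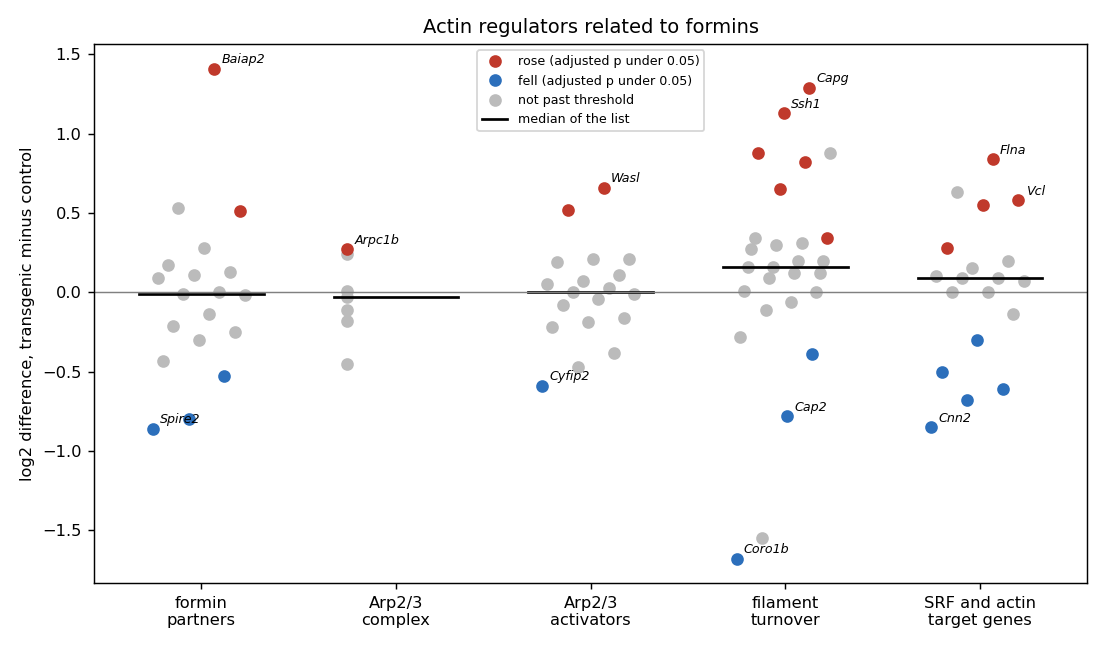
Log2 difference (transgenic minus control, y axis) of each measured gene in 5 lists of actin regulators (x axis), red where it rose and blue where it fell at an adjusted p under 0.05 in limma, grey otherwise, with a line at the list's median. The medians lie between -0.03 and 0.16, and risers such as Baiap2 at 1.41 and Capg at 1.29 share their lists with genes that fell.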

How the data were processed

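The authors deposited a log2 value for each probe set on each array, without pooling; Partek and RMA are named without versions, per the submitters' processing notes, and the scale was read from the values. RMA adjusts for background, brings arrays to a shared distribution and combines probes, so differences of dim probe sets are compressed. Of 28350 probe sets, 21780 named 1 gene, with symbols updated through gene identifiers to RefSeq (GRCm38.p6; 21689 matched), and each of 19933 genes was represented by its probe set with the highest mean. A linear model with group alone was fitted over all genes by limma 3.58.1 (R 4.3.3; lmFit, then eBayes, two-sided), with Benjamini-Hochberg adjustment and a threshold of 0.05. Differences are transgenic minus control. Dim probe sets were kept. The members and lists were chosen with earlier results of these data known. Named genes were all members, Msi2, Msi1, up to 3 risers and 3 fallers per list by lowest p, and the 4 genes most like Fmnl2. Markers that differed between the labels as a member did were named too. A further list of genes is not reported here. Other genes were named after their values were seen. On simulated data with 19933 genes, 69% of genes changed by 1 log2 unit and 89% of those changed by 2 were recovered, with 7 false calls. The simulation changed few genes and drew noise independently for each gene and array. In the real arrays 18.6% of genes passed, so the simulated shares need not hold for them. The groups share replicate numbers. The correlation over genes of same-numbered arrays, each taken relative to its group mean, was 0.52, 0.41 and 0.13 for numbers 1, 2 and 3. The main fit did not pair the arrays, and the replicate block, which pairs them by number, was an alternative only. No label says what a number shares, and control replicate 3 correlated more with transgenic replicate 2 (0.32). Alternatives were the replicate block, sex as a block, other probe set summaries, a filter on the mean, quantile normalization, median centring, an intensity trend, array weights and leaving out each array.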

Additional observations from a re-analysis of the deposited data

How the results depend on the processing

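No formin or named actin gene that passed the threshold changed direction under any alternative, nor did the named leukocyte and epithelial markers or the genes most like Fmnl2. Of the 9 formins, 1 passed with sex as a block. With 1 array left out the number ranged from 1 to 4. Over all genes 2159 passed with the sex block, 7072 with array weights, and between 952 and 5542 with 1 array left out. Of the other formins between 1 and 3 passed with 1 array left out. The formin partner count was 3 with the sex block, 9 with array weights and 0 to 9 with 1 array left out. For the Arp2/3 complex it was 0 in limma with the sex block, the mean of all probe sets, the filter on the mean, median centring and the intensity trend, 2 with array weights and 0 whichever array was left out. For its activators it was 0 with the sex block, 5 with array weights and 0 to 4 with 1 array left out. Filament turnover gave 5 with the sex block, 14 with array weights and 2 to 14 with 1 array left out, and the SRF list 4 with the sex block and 2 to 7 with 1 array left out. The cause of these shifts was not tested. Of the formins and actin genes named, the replicate block changed the calls of Diaph1, Fmn1, Arpc1b and Arpc1a and no other. Dim values near array background limit what can be seen for Daam2 and Fmn2, as do dim values for Grid2ip and Fhod3. The Fmnl1 call also rests on a dim probe set. Its means of 6.02 (transgenic) and 6.39 (control) lay below every array median (6.42 to 6.46).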
